A study of Mus musculus with 14 samples.

Results

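The 9 genes described here write, read and remove cytosine methylation of DNA: Dnmt1, Uhrf1, Dnmt3a, Dnmt3b, Tet1, Tet2, Tet3, Mbd1 and Mbd2. They were chosen by name for their roles and not by a measured value, although earlier results of these data were known. They are 9 of the 18493 protein-coding genes that could be placed on mm9. They were found in each file by position. The cells were the mouse line LEPC of strain C57BL/6 at 3 passages, grown in DMEM with serum and antibiotics in every condition. One condition overexpressed miR-93-5p, a microRNA that the series title names as a driver of liver cancer. A second overexpressed a mutant of miR-93-5p, and the third was the control labelled scr. The sources used here state neither the mutation nor how the microRNA was delivered, nor whether a condition was a clone or a pool. RNA-seq was done in miR-93-5p, mutant and scr cells. The recovery of mRNAs bound by the microRNA, called pulldown here, was done for miR-93-5p, mutant and scr. Its sample titles name the microRNA and, unlike the RNA-seq titles, do not mark overexpression. Peaks of the histone marks H3K4me3, H3K27me3 and H3K9me3 were listed for miR-93-5p and scr cells. Of 14 samples, 12 had files used here, and the 2 input samples were not analysed here. Each assay had 1 library per condition, so no difference below has a replicate error, a test or a p-value, and each is a difference between libraries.

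DNA methylation in mammals sits mostly on the cytosine of CG dinucleotides. DNMT1 copies it onto the new strand at replication, guided by UHRF1, which binds CG sites that are methylated on one strand alone. DNMT3A and DNMT3B place methyl groups on unmethylated DNA. The TET enzymes oxidise methylated cytosine, the first step of its removal, and the methyl-CpG binding proteins MBD1 and MBD2 bind methylated DNA, with MBD2 recruiting the NuRD deacetylase complex. Promoters rich in CG sites are usually free of methylation, and H3K4me3 marks the starts of active genes, while H3K27me3, placed by Polycomb, and H3K9me3 mark repressed chromatin. MicroRNAs pair through the seed, bases 2 to 8, with sites mostly at the 3′ ends of mRNAs and lower the level or translation of those mRNAs.

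Sequences are from RefSeq on GRCm38.p6, 5′ to 3′. The first set is the overexpressed microRNA (chr5:138165574-138165596, minus strand) beside a pair of relatives, with the seed in capitals, shown because the seed is the part that pairs with mRNAs.
mmu-miR-93-5p: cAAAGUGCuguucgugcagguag
mmu-miR-17-5p: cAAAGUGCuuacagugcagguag
mmu-miR-106b-5p: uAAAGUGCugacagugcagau
The same seed stands in 7 mature mouse microRNAs of the RefSeq table. Transcript sequences were not used here, so the mRNAs of the 9 genes were not searched for sites.

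The second set is the 250 bases before the start of 4 of the genes, with each CG in capitals, the dinucleotide on which these enzymes act. Tet1 and Dnmt3b are shown because their histone marks differed from those of the other genes, and Dnmt1 and Uhrf1 because the miR-93-5p and scr pulldown libraries differed most for them. Where RefSeq lists several starts, the one nearest to the 5′ end of the locus assembled in the scr pulldown library is printed. The windows are chr10:62887325-62887574 (minus) for Tet1, chr2:153649199-153649448 (plus) for Dnmt3b, chr9:20952980-20953229 (minus) for Dnmt1 and chr17:56303087-56303336 (plus) for Uhrf1.
Tet1: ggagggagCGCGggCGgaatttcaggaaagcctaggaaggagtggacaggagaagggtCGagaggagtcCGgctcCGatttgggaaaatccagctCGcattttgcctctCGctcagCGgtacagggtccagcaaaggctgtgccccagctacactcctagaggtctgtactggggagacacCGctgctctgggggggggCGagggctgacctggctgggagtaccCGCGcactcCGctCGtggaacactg
Dnmt3b: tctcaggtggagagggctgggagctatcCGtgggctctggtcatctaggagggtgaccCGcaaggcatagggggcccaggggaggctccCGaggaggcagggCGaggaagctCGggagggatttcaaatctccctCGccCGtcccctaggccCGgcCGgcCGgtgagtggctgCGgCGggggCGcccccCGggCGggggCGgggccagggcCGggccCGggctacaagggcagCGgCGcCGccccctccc
Dnmt1: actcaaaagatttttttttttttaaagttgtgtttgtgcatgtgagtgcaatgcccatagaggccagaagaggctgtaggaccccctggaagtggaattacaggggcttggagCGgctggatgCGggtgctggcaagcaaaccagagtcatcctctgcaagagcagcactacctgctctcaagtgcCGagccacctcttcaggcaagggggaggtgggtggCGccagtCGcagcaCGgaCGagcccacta
Uhrf1: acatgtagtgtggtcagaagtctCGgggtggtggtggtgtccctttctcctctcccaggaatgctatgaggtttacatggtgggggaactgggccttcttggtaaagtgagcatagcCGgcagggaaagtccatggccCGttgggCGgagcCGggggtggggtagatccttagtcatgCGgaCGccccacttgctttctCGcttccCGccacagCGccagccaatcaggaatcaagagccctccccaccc
The Tet1 window holds 15 CG sites, the Dnmt3b window 21, the Dnmt1 window 7 and the Uhrf1 window 10. Over 21263 coding promoters of the same length the median was 10, the quartiles were 3 and 19, and 6.61% held none. The counts depend on the start: the other Dnmt1 windows held 2 and 26 sites, and the other Uhrf1 window held 30. Tet2 had 51 sites in its window, more than in the windows of the other genes with a RefSeq promoter, and its count stood at the 99.9 percentile of coding promoters. Promoter entries matched 7 of the 9 genes.

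RNA levels are FPKM, fragments scaled to the length of the transcript model and to the depth of the library, and the range after each value is the pair of bounds deposited with it. Per-length values allow levels of different genes to be set side by side. The genes fell into a high and a low tier in all 3 RNA-seq libraries: Uhrf1, Mbd2 and Dnmt1 lay between 48.2 and 82.7 FPKM, while Mbd1, Tet3, Tet2 and Dnmt3a lay between 3.42 and 11.7 FPKM. Tet1 had no assembled locus in any library, and Dnmt3b had none in miR-93-5p or mutant cells. Among all matched genes the high tier stood between the 83.2 and 91.2 percentiles, and Dnmt3a, Tet2 and Tet3 between the 12.6 and 20.2 percentiles. Bulk RNA cannot tell fewer expressing cells apart from less RNA per cell.

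**Figure D1:**
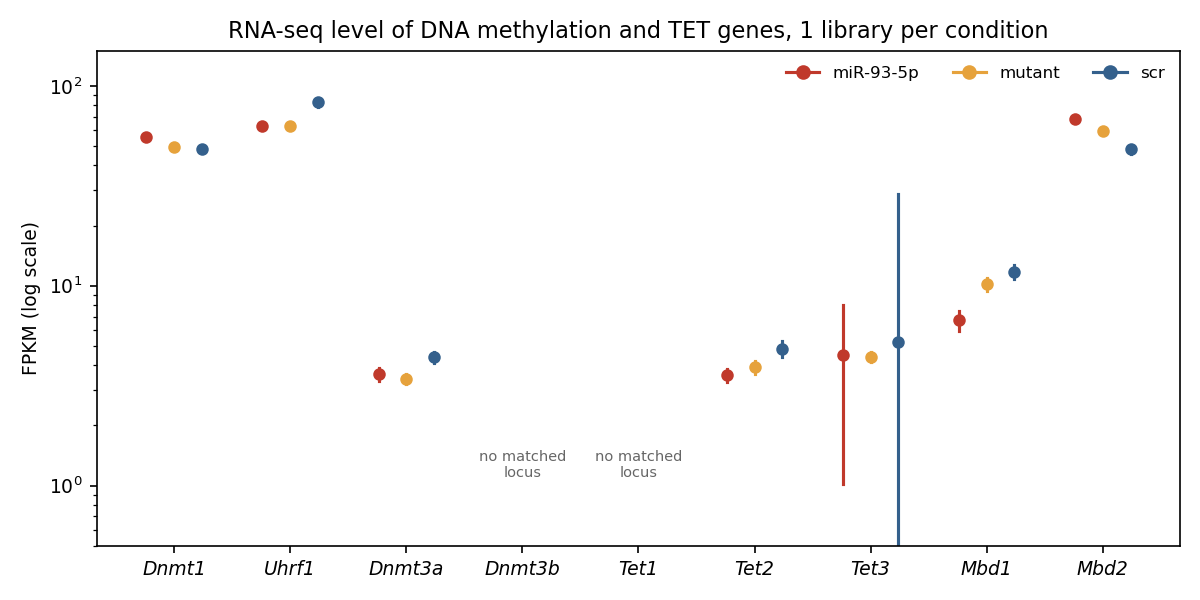
FPKM on a log axis of each gene in the miR-93-5p, mutant and scr RNA-seq libraries, with the deposited lower and upper bounds as vertical lines (the lower bound of Tet3 in scr, 0, runs off the axis). Uhrf1, Mbd2 and Dnmt1 lie between 48.2 and 82.7 FPKM, and the other genes with a matched locus lie at 11.7 FPKM or below.

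Among the maintenance genes, Dnmt1, the copying enzyme (mm9 chromosome 9, 20711649 to 20757317), stood at 55.5 FPKM (53.3 to 57.7) in miR-93-5p cells, 49.6 FPKM (47.7 to 51.5) in mutant cells and 48.3 FPKM (46.3 to 50.3) in scr cells. Its bounds in miR-93-5p lay above those in both other libraries, while those of mutant and scr overlapped. The log2 ratio of FPKM plus 1, the scale of every FPKM ratio below, was 0.20 for miR-93-5p over scr and 0.16 for miR-93-5p over mutant. Uhrf1, its guide (mm9 chromosome 17, 56442743 to 56462909), stood at 63.0 FPKM (59.9 to 66.1) in miR-93-5p cells, 62.8 FPKM (60.4 to 65.1) in mutant cells and 82.7 FPKM (78.8 to 86.6) in scr cells. Both overexpressing libraries lay below scr and overlapped each other, with log2 ratios of -0.39 for miR-93-5p over scr and -0.39 for mutant over scr. The level of Uhrf1 was 1.14 times that of Dnmt1 in miR-93-5p cells, 1.26 times in mutant cells and 1.71 times in scr cells.

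FPKM depends on the transcript model, and each library was assembled alone. A second measure does not use the model's length: implied fragments, the fragment count at which counting alone would make bounds as wide as those listed. It was scaled to a median ratio of 1 between libraries and compared with 10 added. Wide bounds make this measure small, and where isoforms share fragments it may fall below the true count. Before scaling, Tet3 had 0.197 implied fragments in scr at 5.21 FPKM and 1212 in mutant at 4.41 FPKM. On this measure the ratio of Dnmt1 in miR-93-5p was 0.08 over scr and 0.27 over mutant, the same direction as FPKM. For Uhrf1 it was -0.15 in miR-93-5p over scr, -0.45 in miR-93-5p over mutant and 0.30 in mutant over scr. The lower Uhrf1 level in mutant than in scr cells therefore held in FPKM and turned round in implied fragments.

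Of the de novo methyltransferases, Dnmt3a (mm9 chromosome 12, 3806006 to 3914443) was listed at 3.60 FPKM (3.34 to 3.87) in miR-93-5p cells, 3.42 FPKM (3.23 to 3.61) in mutant cells and 4.39 FPKM (4.11 to 4.68) in scr cells. The bounds of scr lay above those of both other libraries, which overlapped. Its log2 ratio for miR-93-5p over scr was -0.23 in FPKM and -0.41 in implied fragments. For mutant over scr it was -0.29 in FPKM and 0.04 in implied fragments, and for miR-93-5p over mutant 0.06 and -0.45, so the direction of both depended on the measure. Dnmt1 stood at 15.4 times the FPKM of Dnmt3a in miR-93-5p cells, 14.5 times in mutant cells and 11.0 times in scr cells. Dnmt3b (mm9 chromosome 2, 153475185 to 153513466) was met only as 1 piece in scr cells, at 0.626 FPKM over 20.4% of the gene, worth 11.7 implied fragments.

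Of the TET dioxygenases, Tet2 (mm9 chromosome 3, 133126642 to 133207354) stood at 3.56 FPKM (3.29 to 3.83) in miR-93-5p cells, 3.91 FPKM (3.63 to 4.18) in mutant cells and 4.83 FPKM (4.38 to 5.27) in scr cells. The log2 ratio for miR-93-5p over scr was -0.35 in FPKM but 0.50 in implied fragments, so its direction depended on the measure. Tet2 was also broken into 3 loci in miR-93-5p, 2 in mutant and 5 in scr. Tet3 (mm9 chromosome 6, 83312366 to 83391672) was listed at 4.50 FPKM in miR-93-5p cells, 4.41 FPKM in mutant cells and 5.21 FPKM in scr cells. Its bounds were 1.02 to 7.97 in miR-93-5p, 4.16 to 4.67 in mutant and 0 to 28.7 in scr, and all 3 overlapped. Tet1 (mm9 chromosome 10, 62267317 to 62361866) had no locus in the RNA-seq libraries.

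By FPKM the methyl-CpG readers gave the widest ratios of the 7 genes compared for miR-93-5p over scr and over mutant, while Uhrf1 at -0.39 was the widest for mutant over scr. Mbd1 (mm9 chromosome 18, 74427925 to 74442339) stood at 6.71 FPKM (5.97 to 7.46) in miR-93-5p cells, 10.2 FPKM (9.43 to 10.9) in mutant cells and 11.7 FPKM (10.8 to 12.6) in scr cells. The miR-93-5p value lay below both others, outside their bounds, while mutant and scr overlapped. Mbd2 (mm9 chromosome 18, 70727842 to 70785785) ran the other way, with 68.3 FPKM (65.4 to 71.2) in miR-93-5p cells, 59.8 FPKM (57.5 to 62.1) in mutant cells and 48.2 FPKM (45.4 to 50.9) in scr cells. No bounds of Mbd2 overlapped, and mutant lay between the other libraries. The level of Mbd2 was 10.2 times that of Mbd1 in miR-93-5p cells, 5.89 times in mutant cells and 4.11 times in scr cells.

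The log2 ratio of Mbd1 was -0.72 for miR-93-5p over scr and -0.53 for miR-93-5p over mutant, at the 6.83 and 5.60 percentiles of all compared genes. In implied fragments, which numbered 324 in miR-93-5p, 788 in mutant and 646 in scr before scaling, the ratios were -1.02 and -0.91. All 8 processing settings tried gave a lower Mbd1 in miR-93-5p than in scr, from -1.07 to -0.72, and than in mutant, from -1.17 to -0.53. The log2 ratio of Mbd2 was 0.50 for miR-93-5p over scr and 0.31 for mutant over scr. All 8 settings gave a higher Mbd2 in miR-93-5p than in scr, from 0.43 to 0.78, and a higher Mbd2 in mutant than in scr, from 0.29 to 0.74. Over mutant, Mbd2 in miR-93-5p was between 0.04 and 0.19 higher. The settings reread the same libraries and are not separate evidence. With no filter on low FPKM, and with a shared part of at least 0.9, each of these FPKM ratios was unchanged.

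**Figure D2:**
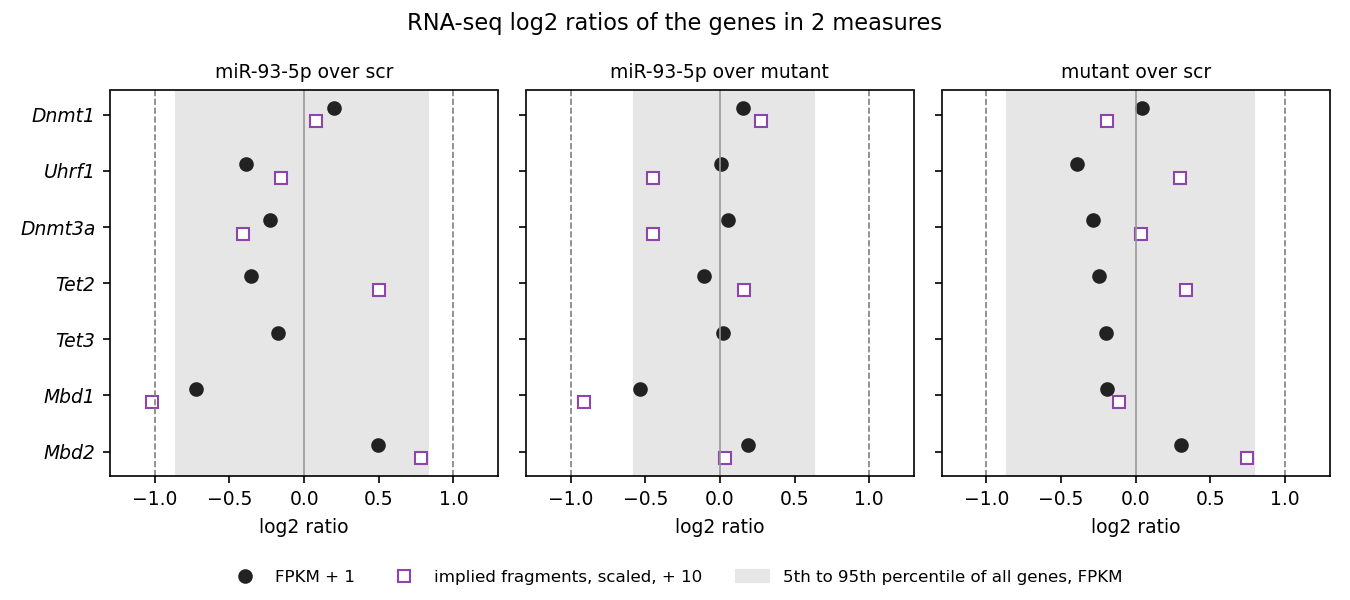
RNA-seq log2 ratios of the 7 genes compared, in panels for miR-93-5p over scr, miR-93-5p over mutant and mutant over scr, as FPKM plus 1 (filled circles) and as scaled implied fragments plus 10 (open squares, none for Tet3). Grey spans the 5th to 95th percentile of the FPKM ratios of all compared genes and dashed lines mark 2-fold: in FPKM no gene passes 2-fold, and Mbd1 in implied fragments reaches -1.02 for miR-93-5p over scr.

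By FPKM, 0 of the 7 genes matched in all 3 RNA-seq libraries were at least 2-fold apart in any comparison. All 7 passed the filter of a mean FPKM of at least 1, and Dnmt3b and Tet1 were the other two. The background of 2-fold differences in either direction was 6.83% of 8423 genes for miR-93-5p over scr, 3.62% for miR-93-5p over mutant and 6.27% for mutant over scr. The median log2 ratio of the 7 genes was -0.23 for miR-93-5p over scr, beside 0.03 over all genes, and 0.02 for miR-93-5p over mutant, beside 0.01. For mutant over scr it was -0.20, beside 0.01 over all genes. For miR-93-5p over mutant and for mutant over scr the middle value was that of Tet3, whose bounds in scr were 0 to 28.7. A shared part of at least 0.9 left Tet3 out, and those medians were then 0.03 and -0.22. In implied fragments the medians of the 6 genes with a value were -0.04 for miR-93-5p over scr, -0.21 for miR-93-5p over mutant and 0.17 for mutant over scr, so the direction for miR-93-5p over mutant and for mutant over scr depended on the measure. The comparisons of miR-93-5p and of mutant with scr share the scr library. By implied fragments 1 of 6 genes, Mbd1, was lower by 2-fold or more in miR-93-5p against scr, beside 7.68% of all genes. With fragments summed over all loci in a gene, Mbd1 alone of the 6 was lower by that much against scr, beside 8.38% of all genes, and against mutant, beside 6.53%. Bounds did not overlap for 6 of 7 genes between miR-93-5p and scr, for 3 of 7 between miR-93-5p and mutant, and for 4 of 7 between mutant and scr. Over the 8423 genes, bounds were apart for 63.9% between miR-93-5p and scr, for 48% between miR-93-5p and mutant and for 64.1% between mutant and scr, so bounds that do not overlap were common.

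Nearest to the RNA-seq level of each gene over the 3 libraries, by distance of log2(FPKM + 1), stood Dld for Dnmt1 at a distance of 0.042, Mrpl16 for Uhrf1 at 0.070, Mccc1 for Mbd1 at 0.119 and Nenf for Mbd2 at 0.083. Nenf had 72.2 FPKM in miR-93-5p cells, 58.7 FPKM in mutant cells and 48.1 FPKM in scr cells. Between 188 and 447 genes lay within 0.5 of each of the 7 genes, so such likeness over 3 values was common.

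The pulldown asked which mRNAs were recovered with the microRNA. The series text mentions biotin for miR-93-5p, and the sources used here do not give the bait of the mutant and scr pulldowns. Its loci lay on GRCm38, as locus ends on gene ends showed, although the submitters' processing notes give mm9. In the miR-93-5p pulldown the loci were short, with a median span of 2437 bp against 9660 bp in mutant and 9780 bp in scr, and 5833 genes were matched, against 8446 in mutant and 8559 in scr. The deposited bounds imply 3814082 fragments in all in miR-93-5p, 5855469 in mutant and 5322228 in scr. Of the 9 genes only Mbd1 and Mbd2 had a matched locus in all 3 pulldown libraries, although 7 had some locus in each. For the rest, implied fragments were summed over the loci with at least 0.5 of their length in the gene, a measure added after the data were seen.

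Dnmt1 and Uhrf1 had fewer fragments in the miR-93-5p pulldown than in the mutant and scr pulldowns. Dnmt1 was assembled there as 1 piece of 2.55 FPKM (1.93 to 3.16) over 10.2% of the gene, reaching 5371 bp inward from its 3′ end. In mutant 1 locus covered 86.6% of the gene at 4.60 FPKM (4.13 to 5.08), and in scr 1 locus covered 86.4% at 16.1 FPKM (15.0 to 17.1). Its scaled summed fragments were 91.5 in miR-93-5p, 314 in mutant and 797 in scr, so miR-93-5p was lowest and scr highest. The log2 ratio was -2.99 for miR-93-5p over scr, -1.67 for miR-93-5p over mutant and -1.32 for mutant over scr.

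Uhrf1 stood in the same order. It was split into 3 pieces in miR-93-5p, of 2.35, 1.52 and 5.31 FPKM, that together covered 86.9% of the gene. A single locus stood at 12.3 FPKM (11.0 to 13.5) in mutant and at 34.5 FPKM (32.2 to 36.8) in scr. Scaled summed fragments were 108 in miR-93-5p, 334 in mutant and 747 in scr, and the log2 ratios were -2.68 for miR-93-5p over scr, -1.54 for miR-93-5p over mutant and -1.14 for mutant over scr. The mutant pulldown also lay below scr for both maintenance genes.

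On this measure 3 of 7 genes, Dnmt1, Uhrf1 and Dnmt3a, were lower by 2-fold or more in miR-93-5p against scr, beside 22.6% of 8757 genes. Against mutant, Dnmt1 and Uhrf1 were lower by that much in miR-93-5p, beside 16.2% of genes, and in mutant against scr Dnmt1, Uhrf1 and Tet3 were, beside 21.2%. Ratios of 2-fold were thus common in the pulldown. In FPKM summed over the same loci, Dnmt1 was at -2.27 and Uhrf1 at -1.80 for miR-93-5p over scr, but at -0.66 and -0.38 for miR-93-5p over mutant, under 2-fold. Dnmt3a in miR-93-5p over scr turned to 0.49 on that scale, where its miR-93-5p value was 1 piece of 317 bp at 6.24 FPKM. FPKM is per length, so its sum can rise with the number of pieces, and a short piece counts as much as a long one. The RNA-seq ratios of the same genes, for miR-93-5p over scr, were 0.09 for Dnmt1 and -0.14 for Uhrf1 in summed fragments. The pulldown ratio minus the RNA-seq ratio was -3.08 for Dnmt1, at the 3.21 percentile of 7423 genes, and -2.54 for Uhrf1, at the 5.73 percentile. The median over all genes was -0.03. Whether the short loci and the fewer fragments of the miR-93-5p pulldown bear on these values was not tested.

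**Figure D3:**
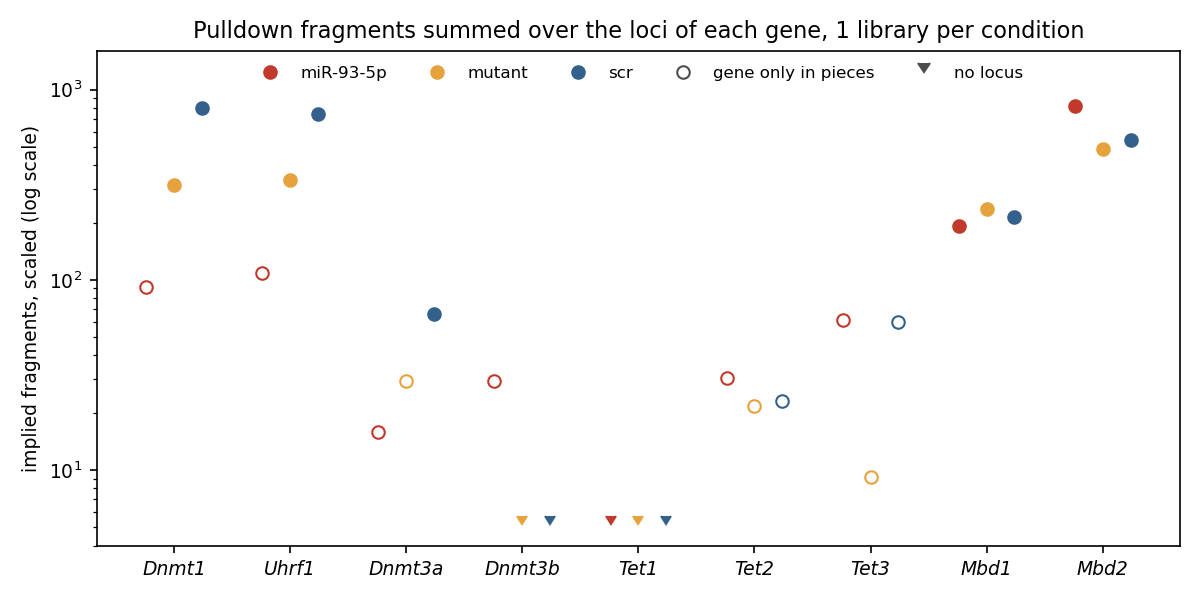
Implied fragments of each gene in the miR-93-5p, mutant and scr pulldown libraries, summed over its loci and scaled to a median ratio of 1, on a log axis; open circles mark genes assembled only in pieces and triangles mark genes with no locus. Dnmt1 has 91.5 in miR-93-5p, 314 in mutant and 797 in scr, and Uhrf1 shows the same order.

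The other methyltransferases and the TET genes were thinly covered in the pulldown. Dnmt3a had 11.9 fragments before scaling in miR-93-5p, all in 1 piece over 0.281% of the gene, 34.9 in mutant and 78.5 in scr, and its log2 ratio for miR-93-5p over scr was -1.56. Dnmt3b had 22.0 fragments in miR-93-5p and no locus in mutant or scr. Its 1 locus, at 1.68 FPKM (0.962 to 2.39), spanned 1153 bp that began 103 bp inside the 3′ end of the gene. Tet1 had no locus in any pulldown library.

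Tet2 had 22.8 fragments in miR-93-5p, 25.8 in mutant and 27.6 in scr. Tet3 had 46.1 fragments in miR-93-5p, 11.0 in mutant and 71.5 in scr. All 12 pulldown loci of Tet2 and Tet3 lay within 10 kb of the 3′ end of the gene, the farthest edge 7346 bp from it, at 0.870 to 2.21 FPKM. After scaling, Tet2 differed between miR-93-5p and scr by 0.28 and Tet3 by 0.03 on the log2 scale, while Tet3 differed between miR-93-5p and mutant by 1.89.

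The readers had a matched locus in each pulldown library. Mbd2 stood at 37.5 FPKM (34.4 to 40.6) in miR-93-5p, 36.7 FPKM (33.6 to 39.7) in mutant and 39.3 FPKM (36.1 to 42.5) in scr, with bounds that all overlapped. Mbd1 stood at 24.9 FPKM (20.1 to 29.7) in miR-93-5p, 6.83 FPKM (5.90 to 7.76) in mutant and 7.50 FPKM (6.50 to 8.50) in scr. By FPKM the miR-93-5p value of Mbd1 lay above both others: the log2 ratio was 1.61 against scr and 1.73 against mutant.

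The fragments did not follow the FPKM of Mbd1. Implied fragments of its matched locus numbered 107 in miR-93-5p, 216 in mutant and 225 in scr before scaling, and after scaling the log2 ratio was -0.42 against scr and -0.17 against mutant. The direction of Mbd1 in the pulldown thus depended on the measure. By FPKM 1 of the 2 genes compared, Mbd1, was higher by 2-fold or more in miR-93-5p, as were 11.8% of 5258 genes against scr and 4.89% against mutant. By implied fragments of the matched loci 0 of 2 were, beside 20.6% of genes against scr and 13.1% against mutant. Between mutant and scr 0 of 2 were at least 2-fold apart, beside 44.8% of all genes.

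H3K4me3, the mark of active starts, lay on 8 of the 9 genes in miR-93-5p cells and on the same 8 in scr cells, all except Tet1. A peak overlapped 56.6% of 18493 genes in miR-93-5p and 56.3% in scr. On 7 of the 8 genes the peak had a score of 3100 in both lists, a value that 54.7% of the miR-93-5p peaks and 59.8% of the scr peaks share. Scores are those of the authors' peak lists, and depth enters them, so they rank peaks within a list only. The widths at these 7 genes were between 2192 and 5140 bp in miR-93-5p and between 2083 and 5197 bp in scr. Uhrf1 also had a second H3K4me3 peak beyond its 3′ end, 1374 bp away in miR-93-5p and 1412 bp away in scr.

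**Figure D4:**
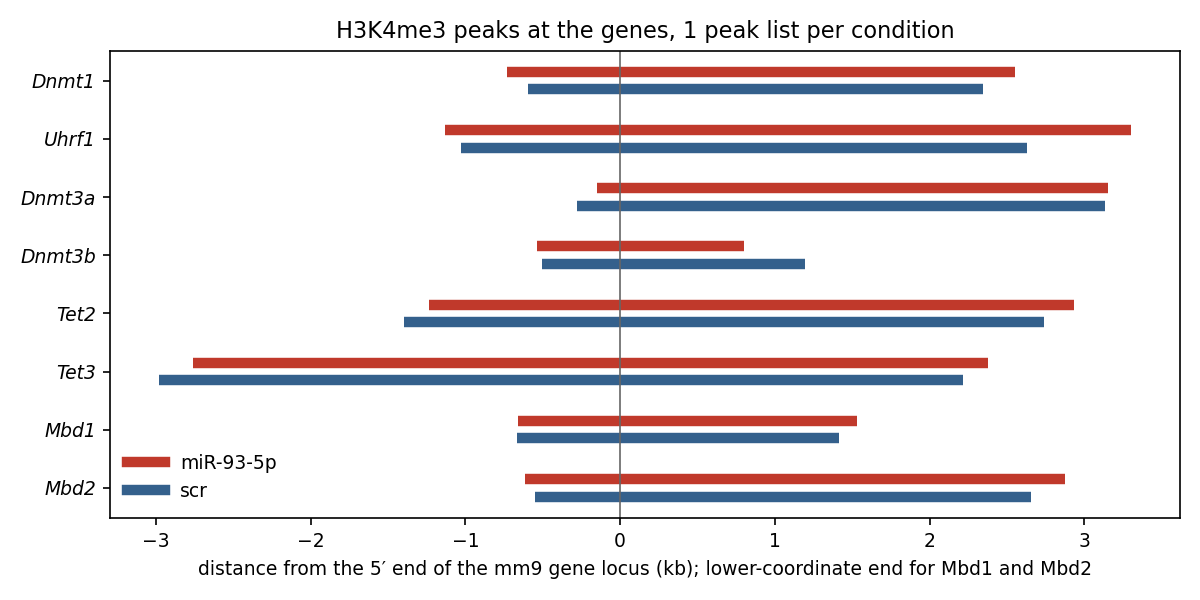
H3K4me3 peaks over the starts of the 8 genes that have one, in miR-93-5p (red, upper) and scr (blue, lower) cells, as distance in kb from the 5′ end of the mm9 gene locus, or from the lower-coordinate end for Mbd1 and Mbd2, whose strand was not used. Each bar is 1 peak; Dnmt3b has the narrowest, 1335 bp in miR-93-5p and 1698 bp in scr.

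Dnmt3b carried the weakest and narrowest H3K4me3 peak of the 8 genes in each list. It was 1335 bp wide with a score of 346 in miR-93-5p cells, where 71.6% of peaks scored as high or higher. In scr cells it was 1698 bp wide with a score of 1170, and 68.8% of peaks scored as high or higher.

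H3K27me3 lay within 2 of the 9 genes, Tet1 and Dnmt3b, in miR-93-5p and in scr, beside 19% of all genes in miR-93-5p and 20.4% in scr. They were also the genes with no matched RNA-seq locus in any library. Tet1 held 13 H3K27me3 peaks in miR-93-5p cells and 9 in scr cells. They covered 5983 bp, 6.33% of the gene, in miR-93-5p and 8693 bp, 9.19%, in scr. As many peaks or more lay in 1.47% of all genes in miR-93-5p and in 2.81% in scr. These shares were not adjusted for gene length, and Tet1 spans 94549 bp. Of the 13 miR-93-5p peaks 2 overlapped a scr peak, beside 44.9% of all H3K27me3 peaks of miR-93-5p. The highest Tet1 score was 137 in miR-93-5p and 188 in scr, where the lists start at 50 and reach 922 in miR-93-5p and 2442 in scr. No H3K27me3 peak lay over the Tet1 start. Inside the gene the nearest began 21301 bp downstream of the start in miR-93-5p and 4541 bp downstream in scr. Outside the locus the nearest scr peak lay 2682 bp upstream. Tet1 thus held H3K27me3 inside the gene, away from its start, and no H3K4me3. H3K27me3 at any position in the gene with no H3K4me3 was found at 14.2% of genes in miR-93-5p and 14.9% in scr.

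At Dnmt3b the H3K27me3 peaks of the conditions did not overlap. In miR-93-5p cells 1 peak of 319 bp with a score of 56.9 lay 34987 bp downstream of the start. In scr cells a peak of 2206 bp with a score of 156 ran from -893 to 1313 bp relative to the start, across the H3K4me3 peak, and another of 695 bp lay 23567 bp downstream. Overlapping H3K4me3 and H3K27me3 peaks were found at 0 of the 9 genes in miR-93-5p and at 1, Dnmt3b, in scr. Among all genes such overlaps were found at 0.638% in miR-93-5p and 2.63% in scr, and 71.8% of the 486 genes that had one in scr kept an H3K4me3 peak without it in miR-93-5p.

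The H3K27me3 lists themselves differed. Their peaks had a median width of 473 bp in miR-93-5p and 1049 bp in scr, and the 43501 peaks of miR-93-5p covered 23684648 bp, against 60013714 bp under the 44412 peaks of scr. The part of this difference in the values at Dnmt3b and Tet1 was not tested. H3K9me3 touched Tet1 in miR-93-5p cells, with 1 peak of score 50.7, and Dnmt3b in scr cells, with 1 peak of score 56.8. A peak of this mark overlapped 20.2% of genes in miR-93-5p and 15.4% in scr.

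**Figure D5:**
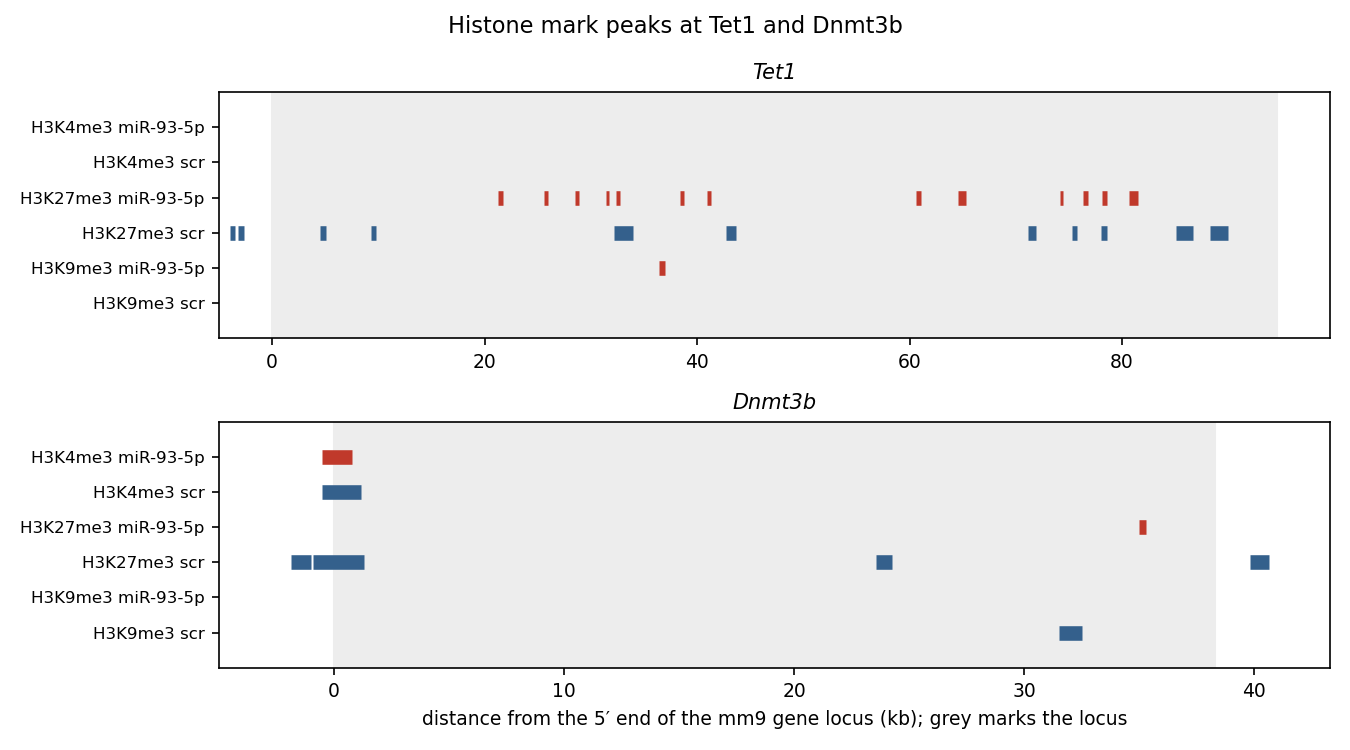
Peaks of H3K4me3, H3K27me3 and H3K9me3 at Tet1 and Dnmt3b in miR-93-5p (red) and scr (blue) cells, by distance in kb from the 5′ end of the mm9 gene locus, shaded grey. Tet1 has 13 H3K27me3 peaks inside the locus in miR-93-5p and 9 in scr and no H3K4me3; at Dnmt3b the scr H3K27me3 peak over the start is not in the miR-93-5p list.

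Genes around the same pathway, in 7 lists of 77 genes outside the 9, were mostly less than 2-fold apart in RNA-seq. Of 65 compared, 1 was higher and 2 were lower by 2-fold or more in miR-93-5p against scr, where the background was 2.97% higher and 3.86% lower. For miR-93-5p over mutant there were 0 of 65 in either direction, and for mutant over scr 2 higher and 2 lower, where the background was 2.64% and 3.63%. Idh1, which makes the 2-oxoglutarate that TET enzymes need, had 37.3 FPKM in miR-93-5p cells, 46.5 FPKM in mutant cells and 99.7 FPKM in scr cells. Idh3a, a subunit of the mitochondrial enzyme for the same product, had 101 FPKM in miR-93-5p cells, 111 FPKM in mutant cells and 43.0 FPKM in scr cells. In both, mutant stood nearer to miR-93-5p than to scr.

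By implied fragments 63 of the genes had a value, of which 6 were higher and 8 lower by 2-fold or more in miR-93-5p against scr, where the background was 7.56% higher and 7.68% lower. Both counts were larger by this measure than by FPKM.

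The other gene past 2-fold by FPKM in miR-93-5p against scr was Gadd45b, a stress-induced gene linked to active demethylation, with 7.98 FPKM in miR-93-5p cells, 7.19 FPKM in mutant cells and 25.1 FPKM in scr cells. By FPKM, of the other readers 0 of 8 were 2-fold apart in miR-93-5p over scr, with a median log2 ratio of 0.22. Mbd4, a reader and glycosylase, had a ratio of -0.66 and Zbtb38, a zinc finger reader, one of 0.55. The NuRD complex, the partner of MBD2, had 0 of 9 apart and a median of -0.18. The methyl donor cycle had 0 of 11 apart and a median of 0.19, and the methyltransferase partners 0 of 5 and -0.23. The S phase genes, expressed around replication, had 0 of 13 apart and a median of -0.43 in miR-93-5p over scr, 0.06 in miR-93-5p over mutant and -0.36 in mutant over scr, beside -0.39, 0.01 and -0.39 for Uhrf1. In implied fragments 1 of the 13 was higher and 2 were lower by 2-fold or more in miR-93-5p over scr. The medians were -0.10, 0.03 and -0.29 in the same order of comparisons. On that measure Uhrf1 stood at -0.15, -0.45 and 0.30. Its nearness to the S phase medians in FPKM was thus lost for miR-93-5p over mutant and for mutant over scr.

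In the pulldown 47 of the 77 were compared, of which by FPKM 4 were higher and 26 lower by 2-fold or more in miR-93-5p against scr. The background was 11.8% higher and 33.8% lower. By implied fragments 9 of 46 were higher and 15 lower, where the background was 20.6% higher and 22.6% lower. In the NuRD list 6 of 7 were lower by FPKM in miR-93-5p against scr. The methyl donor cycle had 5 of 7 lower, the 2-oxoglutarate enzymes 4 of 7 and the methyltransferase partners 3 of 5. The S phase genes had 5 of 11 lower, the oxidised base repair genes and TET partners 3 of 7 and the other readers 0 of 3. By implied fragments 5 of 7 NuRD genes were lower and 1 was higher. For mutant over scr 5 of 7 NuRD genes were lower by each measure and 1 was higher by FPKM. Over all genes 1209 of 5258 were lower and 1146 higher by FPKM, and 965 of 4943 were lower by implied fragments. Rbbp4, a histone-binding subunit in the NuRD list, had 16.0 FPKM in miR-93-5p, 35.2 FPKM in mutant and 116 FPKM in scr. E2f1, a driver of S phase entry, ran the other way with 78.4 FPKM in miR-93-5p, 30.7 FPKM in mutant and 8.71 FPKM in scr. Gadd45a, of the same family as Gadd45b, had 117 FPKM in miR-93-5p, 98.9 FPKM in mutant and 23.5 FPKM in scr.

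The cell line was checked against markers in RNA-seq. Biliary and progenitor markers were matched for 6 of 8 genes in miR-93-5p and 7 of 8 in mutant and scr, with summed levels of 1936 FPKM in miR-93-5p, 2148 FPKM in mutant and 1542 FPKM in scr. Spp1 made up much of each sum, with 1076 FPKM in miR-93-5p, 1077 FPKM in mutant and 531 FPKM in scr. The sums cover different genes: Krt19 was matched in miR-93-5p and mutant but not in scr, Epcam in scr alone, and Krt7 in mutant and scr. They are therefore not a like comparison of levels between libraries. By FPKM, of the 5 markers compared, 1 was higher and 2, Krt8 and Cdh1, were lower by 2-fold or more in miR-93-5p against scr. The background was 2.97% higher and 3.86% lower, and the median log2 ratio of the 5 was -0.61. By implied fragments 1 was higher and 2, Krt18 and Cdh1, were lower, where the background was 7.56% and 7.68%. The median on that measure was -0.24, and Krt8 stood at -0.24, so which markers passed 2-fold depended on the measure. Hepatocyte markers were matched for 3 of 7 in miR-93-5p and 5 of 7 in mutant and scr, with sums of 14.3 FPKM in miR-93-5p, 38.8 FPKM in mutant and 62.5 FPKM in scr, and for albumin no locus was matched in the miR-93-5p library. Of the 5 mesenchymal markers only Vim was matched, with 711 FPKM in miR-93-5p, 784 FPKM in mutant and 1061 FPKM in scr. Its log2 ratio for miR-93-5p over scr was -0.58 in FPKM and -4.73 in implied fragments. Of the 4 endothelial markers none was matched. Leukocyte markers summed to 1.16 FPKM in miR-93-5p, 1.82 FPKM in mutant and 9.19 FPKM in scr, where Cd68 was matched in scr alone. The part of these marker differences in the levels of the 9 genes was not tested.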

How the data were processed

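The deposited RNA files list the FPKM of each assembled locus between 2 bounds, per the file headers. The deposited peak lists give a score per peak, called for each library. TopHat2, Cufflinks, Cuffdiff, CASAVA 1.4, Bowtie and MACS on mm9 are named in the submitters' processing notes, with no settings.

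RNA-seq loci and peaks were placed on 18493 protein-coding mm9 gene loci listed in the pulldown files, and pulldown loci on 21900 GRCm38.p6 genes. Locus ends within 5 bp of gene ends numbered 913 to 1032 on mm9 and 31 to 34 on GRCm38 in RNA-seq, and 20 to 31 on mm9 and 611 to 722 on GRCm38 in the pulldown. A locus and a gene matched as each other's best overlap with at least 0.5 of their joint length shared. Ratios are log2 of FPKM plus 1, for genes with a mean FPKM of at least 1, called at 2-fold. Implied fragments needed at least 3 per library; of loci under 40, 55.2% to 60.2% per library were whole to within 0.1, and where isoforms share fragments the true count may be higher. A peak was assigned at an overlap of at least 1 bp. The computations were checked on simulated data with exact folds, shifted locus ends and bounds made by counting alone. That checks the arithmetic and the matching only, since noise, shared isoforms and broken loci were not simulated.

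The 9 genes and all lists were chosen with earlier results of these data known. List genes named are at most 2 per list and assay, with the largest ratio of miR-93-5p over scr in either direction; likeness is 1 nearest gene each. Python 3.11.15, numpy 2.4.6, pandas 2.3.3 and matplotlib 3.10.9 were used.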

Additional observations from a re-analysis of the deposited data

Results flagged for a closer look

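Both results concern signals found in the miR-93-5p sample and not in the libraries set beside it, outside the comparisons above. Dnmt3b had a locus of 1.68 FPKM at its 3′ end in the miR-93-5p pulldown and none in the mutant or scr pulldown, and its RNA-seq libraries held no locus in miR-93-5p and 1 piece of 0.626 FPKM in scr. It rests on 22.0 implied fragments.

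An H3K9me3 peak with a score of 375 and a width of 3656 bp lay 3443 bp beyond the higher-coordinate end of the Mbd1 locus in miR-93-5p cells, and the scr list had no peak within 5 kb of the gene. In its list 4.68% of peaks scored as high or higher. Of all H3K9me3 peaks of miR-93-5p 42.9% overlapped a scr peak, so a peak absent from the scr list was common. The miR-93-5p list held 25879 peaks over 39236756 bp, and the scr list 15888 peaks over 21558002 bp. Mbd1 was the gene with the lowest RNA-seq ratio of miR-93-5p over scr among the 7 compared, and a link between these values was not tested.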

How the results depend on the processing

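With 1 library per condition no library could be left out. No paired analysis was possible because each group held 1 sample. Of the counts of genes under other settings, 44 kept within 1.5 times the reported count and 16 did not. In RNA-seq, where the reported count at 2-fold is 0, implied fragments gave 1 for miR-93-5p over scr and summed fragments 1 each for miR-93-5p over scr and over mutant, Mbd1 each time, and summed FPKM gave 1 for mutant over scr, Tet2 at -1.06. In the pulldown, implied fragments gave 0 for miR-93-5p over scr and over mutant, and summed FPKM and summed fragments gave 3 for each of the 3 comparisons, over 7 genes in place of 2, with other genes among them for miR-93-5p over scr and over mutant. For miR-93-5p over scr, summed FPKM had Mbd1 higher (1.71) and Dnmt1 (-2.27) and Uhrf1 (-1.80) lower, and summed fragments had Dnmt1 (-2.99), Uhrf1 (-2.68) and Dnmt3a (-1.56) lower. For miR-93-5p over mutant, summed FPKM had Dnmt3a (1.34), Tet3 (1.17) and Mbd1 (1.47) higher, and summed fragments had Tet3 higher (1.89) and Dnmt1 (-1.67) and Uhrf1 (-1.54) lower. For mutant over scr both had Dnmt1, Uhrf1 and Tet3 lower. The pulldown ratio of Mbd1 turned to -0.42 and -0.15 over scr and to -0.17 and -0.28 over mutant in implied and summed fragments. At a peak score of at least 100, H3K27me3 marked 1 gene in miR-93-5p, and H3K9me3 marked 0 in miR-93-5p and in scr; with 5 kb added to the locus H3K9me3 marked 2 in miR-93-5p. The cause of each was not tested. The pulldown ratios of Dnmt3a, Tet2 and Tet3 rest on few fragments, and the bounds cover counting and isoform assignment in 1 library, not variation between cultures. Summed FPKM can rise with the number of pieces into which a gene was assembled.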
